A study of Mus musculus with 10 samples.

Results

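The genes described are the mouse chemokine ligand and receptor genes with a Ccl, Cxcl, Ccr or Cxcr symbol, or Cx3cl1, Cx3cr1, Xcl1 or Xcr1, for which a probe listed that gene alone. There were 52 of them among 17991 genes, 35 ligands and 17 receptors. The brightest probe stood for a gene, and 4 genes had a second probe. The symbols Ccl21b and Ccl27a belong to genes with near-identical copies, so their probes may read several genes. A probe listing several Ccl21 genes was not used, and Ccl26 was not analysed here.

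Chemokines are small secreted proteins that guide leukocytes. They bind G protein-coupled receptors on the migrating cell and are held on the glycosaminoglycans of the vessel wall. The ligands are grouped by the spacing of their first cysteines into the CC, CXC, CX3C and C families, and the receptors are named after the family they bind. In atherosclerotic arteries, chemokines are known for recruiting monocytes, while Cxcl13, Ccl19 and Ccl21 organise B and T cells in lymphoid tissue.

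All samples came from the abdominal aorta of male ApoE-/- mice aged 14 weeks, which lack apolipoprotein E and develop atherosclerosis, so both groups carried the deletion and mice with the intact gene form no group. Tissue of 2 mice was pooled, in 5 pools numbered 1, 6, 8, 11 and 12. Every pool was divided at the renal level into a suprarenal and an infrarenal sample, which lie above and under the kidney arteries. The 10 samples were read on 1 single-colour array each, with 36227 probes, so the number of arrays limits the precision.

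Values are log2 intensities, which the authors had scaled to an array median near 1, so 0 is about the median probe of an array. A level is meaningful only within its probe, and probes are not set against each other. A regional difference is infrarenal minus suprarenal within the pools, given with its standard error (SE), and its p-value comes from limma, adjusted by Benjamini-Hochberg over 36061 probes with a threshold of 0.05. Every SE and interval is over the 5 pools unless stated, and values by pool are given in the order 1, 6, 8, 11 and 12. The probe of the deleted gene, Apoe, averaged -3.58 ± 0.74 on suprarenal and -4.14 ± 0.93 on infrarenal arrays (SD, n = 5 each). It was in the dimmest 30% of probes on all 10 arrays, and which part of the gene it covers is not given. All 8 smooth muscle markers were above the dimmest 30%. Pool 12 stands apart: across 24991 probes above that range, which are not independent replicates, its differences had an r of -0.308 against the average of the remaining pools. The r was -0.0971 for pool 1 and 0.339, 0.175 and 0.128 for pools 6, 8 and 11. In pool 12 the RNA input was 0.51 µg for the infrarenal and 0.35 µg for the suprarenal array. No other pool had more RNA input for its infrarenal array than for its suprarenal one. The cause of the negative r of pool 12 was not tested. The files do not settle whether both arrays of pool 12 carry the right region label. If these labels were exchanged, every pool 12 difference would have the opposite sign. Differences with a pool left out were read for 38 genes, which do not include Xcl1, Ccr8, Clec9a, Ccl27a, Cxcl15 and Cxcr1. For those 38, a value without a pool is given where leaving it out moves a difference by over 1.5 times or turns its sign. Some are given as the range over the pools left out in turn.

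The DNA just before the start of 4 ligand genes is shown because each of these genes had a negative difference at an unadjusted p under 0.05. Each stretch holds the 250 bases upstream of the RefSeq gene start (GRCm38.p6), 5′ to 3′ on the strand of the gene. Capitals mark matches, on either strand, to the TATA box (TATAAA) or to one form of the motif of NF-kB, a factor of inflammatory gene induction (GGG and TTTCC with any 2 bases between). Cxcl13 is at chr5:95956689-95956938, plus strand, Ccl9 at chr11:83578637-83578886, minus strand, Ccl6 at chr11:83593088-83593337, minus strand and Ccl8 at chr11:82114935-82115184, plus strand.
Cxcl13: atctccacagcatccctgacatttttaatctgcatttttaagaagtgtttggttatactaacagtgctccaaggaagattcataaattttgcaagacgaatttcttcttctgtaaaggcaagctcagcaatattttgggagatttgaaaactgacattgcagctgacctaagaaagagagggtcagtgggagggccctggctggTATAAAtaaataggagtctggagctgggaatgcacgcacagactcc
Ccl9: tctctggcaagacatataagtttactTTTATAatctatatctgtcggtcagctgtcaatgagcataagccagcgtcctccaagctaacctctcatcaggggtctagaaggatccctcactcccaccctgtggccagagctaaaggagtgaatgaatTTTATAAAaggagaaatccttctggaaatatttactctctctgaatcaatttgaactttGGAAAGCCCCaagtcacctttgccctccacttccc
Ccl6: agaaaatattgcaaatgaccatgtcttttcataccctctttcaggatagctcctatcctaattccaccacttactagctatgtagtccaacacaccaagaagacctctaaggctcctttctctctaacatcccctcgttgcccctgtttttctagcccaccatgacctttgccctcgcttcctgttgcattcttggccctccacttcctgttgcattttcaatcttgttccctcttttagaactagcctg
Ccl8: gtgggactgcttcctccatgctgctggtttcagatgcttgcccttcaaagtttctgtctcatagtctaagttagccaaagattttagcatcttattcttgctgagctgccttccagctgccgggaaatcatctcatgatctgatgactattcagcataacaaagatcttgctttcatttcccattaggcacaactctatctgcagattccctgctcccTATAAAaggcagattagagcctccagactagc

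A TATA box match stood in the sequences of Cxcl13, Ccl9 and Ccl8 and an NF-kB match in that of Ccl9; in Ccl9 the TATA box letters of both strands overlap in 1 run of capitals. That of Ccl6 held neither. RefSeq sequences were matched for 39 of the 52 genes, with 43 start sites. The TATA box was found in 25.6% of these 43 stretches and in 12.4% of all 32851. The NF-kB form was found in 14% of the 43, before Ccl9, Ccl20, Ccr3, Cxcl1, Cxcl2 and Cxcl3, and in 1.41% of all stretches. An interferon regulatory factor motif (GAAA and GAAA with any 2 bases between) was in 6.98% of the 43, before Ccl19, Cxcl10 and Cxcl14, against 2.98% of all. The motif of STAT factors (TTCNNNGAA) was in 6.98% against 7.02%. A match is a description of the letters and not a binding site. In the genome, Ccl9 and Ccl6 are direct neighbours between Ccl5 and Ccl3, and Ccl7 and Ccl8 lie in the run Ccl2, Ccl7, Ccl11, Ccl12, Ccl8 and Ccl1.

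Most chemokine genes were read above the dim range of the arrays. By the mean over the 10 arrays, 40 of 52 lay above the dimmest 30% of probes (a mean above -1.59 log2 units), which is 76.9%, against 78.3% of all genes. Among ligands it was 29 of 35 and among receptors 11 of 17. Against the limit of each single array, 37 genes were above on all 10 arrays, 10 on some and 5 on none. The number above was 40 to 42 on infrarenal arrays and 41 to 44 on suprarenal arrays, so the ranges overlapped. Just outside the limit were the receptor genes Ccr8 and Ccr10 with means of -1.69 and -1.72, and just inside it Cxcr6 and Cxcr2 with -1.09 and -1.05.

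The 6 dim ligands were Ccl20, which attracts Ccr6-bearing lymphocytes, Ccl28, a mucosal ligand, the neutrophil ligands Cxcl2, Cxcl3 and Cxcl5, and the interferon-induced Cxcl11. The 6 dim receptors were Ccr3, Ccr6, Ccr7, Ccr8, Ccr10 and Cxcr1. Of these 12 genes, Ccl20, Ccl28, Cxcl3, Cxcl11 and Cxcr1 were above the limit on no array. Cxcl2 was above it on 1 infrarenal and 3 suprarenal arrays and Cxcl5 on 1 suprarenal array. Ccr3, the eotaxin receptor of eosinophils, was above it on 3 arrays, all infrarenal. Ccr8, the receptor for Ccl1 and mouse Ccl8, was above it on 3 arrays, and the mean of its infrarenal arrays lay above the limit of that region. Ccr7, the receptor for Ccl19 and Ccl21 on T and dendritic cells, was above it on 1 suprarenal array. The dim range holds background as well as weak signal, so a dim probe does not show that a gene was off.

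**Figure D1:**
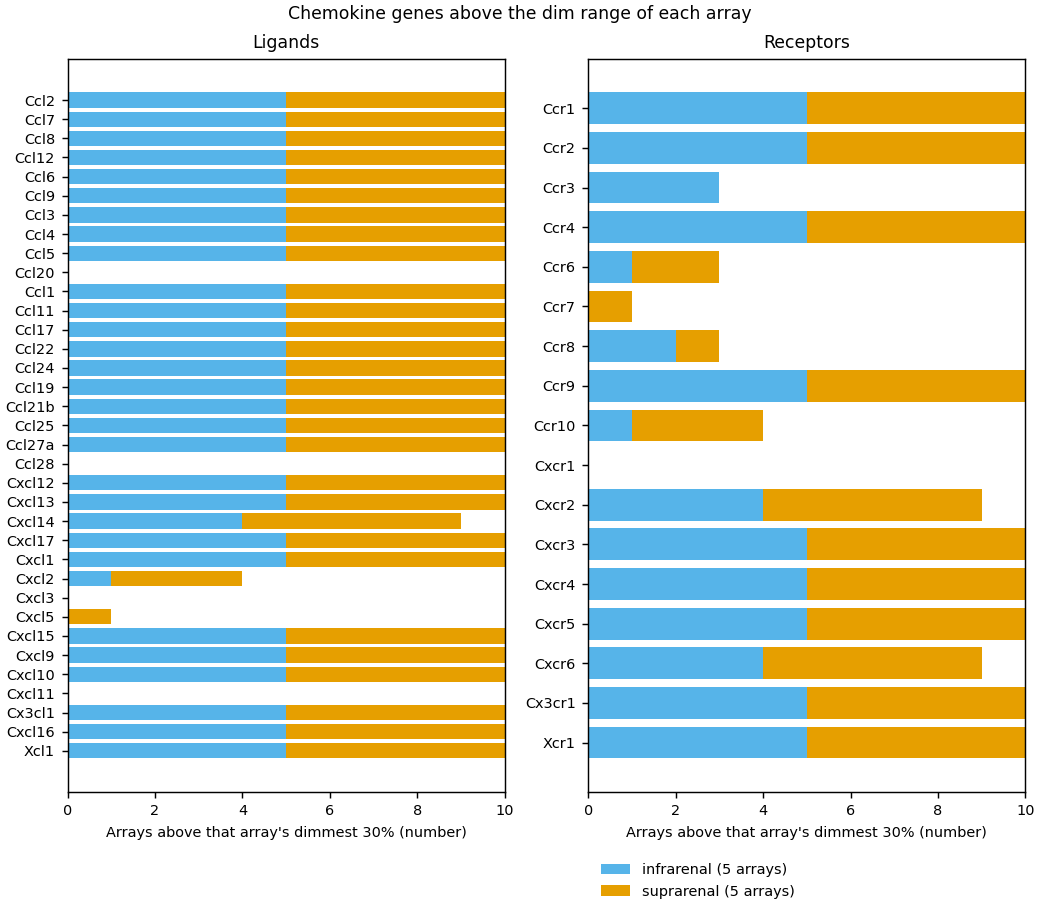
Number of arrays, of 5 infrarenal (blue) and 5 suprarenal (orange), on which each chemokine ligand (left) and receptor (right) gene exceeded the dimmest 30% of that array's probes. The bars reach 10 for 37 of 52 genes, and 5 genes have none.

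The comparison of infrarenal with suprarenal aorta asked which genes differ along the vessel of the same animals. None of the 52 chemokine genes passed it, and none of 36061 probes did (0%, smallest adjusted p = 0.11 by limma). Over all probes 2726 had an unadjusted p under 0.05 (7.56%). At an unadjusted p under 0.05 there were 6 genes lower and 1 higher in infrarenal aorta among the 40 above the dim range. Over all 14085 genes above the dim range, 7.26% were lower and 1.29% higher at that level. Without pool 8 the lower chemokine genes numbered 2, Ccl9 and Cxcl13, and the higher ones 2, Ccr9 and Cx3cr1. Over all genes above the dim range the lower ones then numbered 455 instead of 1023 and the higher ones 161 instead of 181. Of the 40, 24 had a negative difference, which is 60%, against 66.5% of all genes above the dim range, and their median difference was -0.11 log2 units against -0.065. Differences of the 40 ran from -0.71 to 0.48 log2 units, and their median 95% interval reached 0.34 to either side. No chemokine gene had regions that did not overlap, against 1.36% of all genes above the dim range. Within pools the median of the 40 was 0.11, -0.092, -0.14, -0.087 and -0.22 in pools 1, 6, 8, 11 and 12, beside 0.016, -0.069, -0.095, -0.062 and -0.081 for all genes above the dim range.

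**Figure D2:**
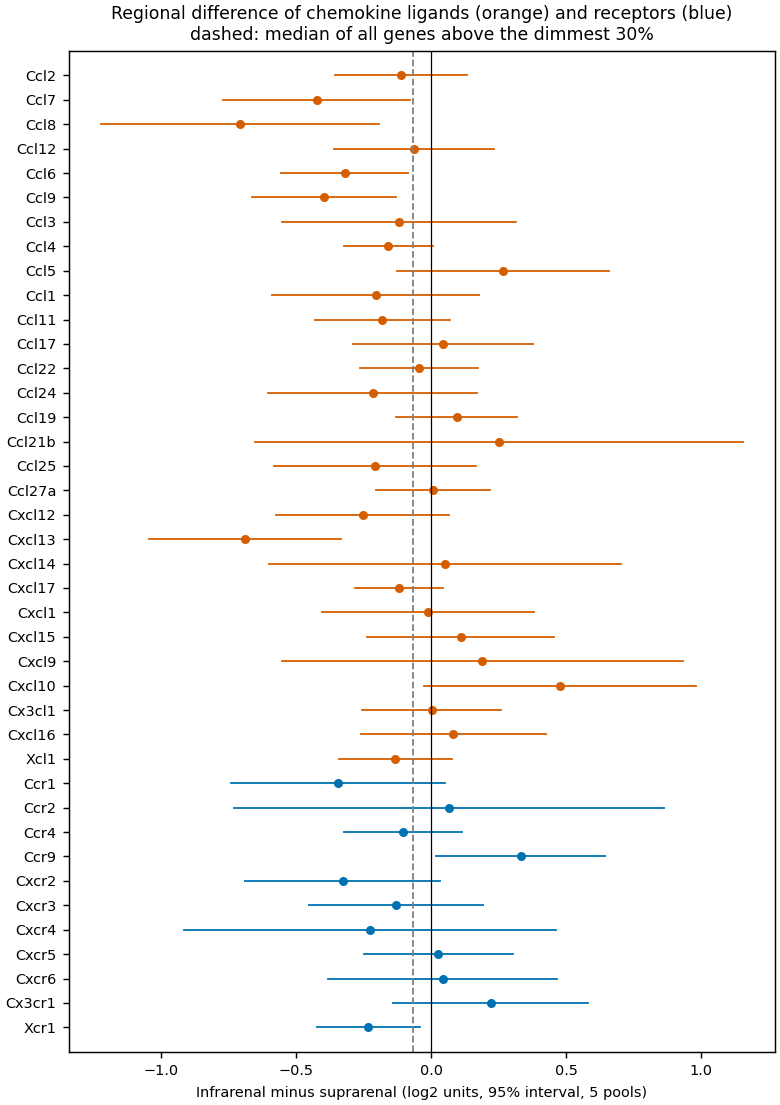
Regional difference (infrarenal minus suprarenal, log2 units) of the 40 chemokine genes above the dim range, with its unadjusted 95% interval over 5 pools, ligands in orange and receptors in blue. Most intervals include 0, and the intervals of 6 genes lie below it and that of Ccr9 above it, but no adjusted p passed.

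The 7 genes of small unadjusted p shared an adjusted p of 0.638 by limma, so they are described as values and not as changes. The difference of lowest p was that of Cxcl13, the ligand of Cxcr5 that draws B cells into follicles and that macrophages of body cavities also make. Cxcl13 read 2.77, 2.47, 2.26, 1.68 and 1.29 log2 units in suprarenal and 1.90, 1.51, 2.20, 0.59 and 0.82 in infrarenal aorta of pools 1, 6, 8, 11 and 12. The infrarenal part was lower in 5 of 5 pools, nearly level in pool 8 and lower by more in the other 4, while the pools themselves differed so much that the regions overlapped. Its difference was -0.69 ± 0.15 (SE; 95% interval -1.05 to -0.33), which is 1.61-fold higher in suprarenal aorta. Cxcl13 also varied most between arrays, with an SD of 0.709 over the 10 arrays against a median of 0.273 among the 40. With no replicate block its unadjusted p was 0.0622, while with the block it was 0.0021.

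Ccl9 and Ccl6, neighbouring genes for ligands of Ccr1 made by macrophages and other myeloid cells of the mouse, both read lower in infrarenal aorta on average. Ccl9 read 3.30, 3.28, 3.73, 3.27 and 3.58 in suprarenal and 3.40, 2.77, 3.30, 2.82 and 2.89 in infrarenal parts, in the same order of pools. It was lower in 4 of 5 pools and slightly higher in pool 1, with a difference of -0.40 ± 0.12 (SE), 1.32-fold higher in suprarenal aorta. Ccl6 read 5.67, 5.62, 5.78, 5.31 and 5.56 in suprarenal and 5.52, 5.08, 5.31, 5.34 and 5.09 in infrarenal parts. It was lower in pools 1, 6, 8 and 12 and level in pool 11, with a difference of -0.32 ± 0.10 (SE), 1.25-fold higher in suprarenal aorta. The unadjusted p-values were 0.00897 and 0.0139. Their receptor gene Ccr1, named after its value was seen, was lower in 4 of 5 pools with a difference of -0.34 ± 0.17 (SE) and an unadjusted p of 0.0808, and -0.19 without pool 12.

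The genes of the monocyte chemoattractant proteins Ccl2, Ccl7, Ccl8 and Ccl12 all had negative differences, from -0.71 to -0.064 log2 units. Ccl8, whose protein binds Ccr8 in the mouse, read 3.87, 3.21, 4.42, 3.18 and 3.99 in suprarenal and 2.85, 3.38, 3.31, 3.0 and 2.58 in infrarenal parts. The infrarenal value was lower by over 1 log2 unit in pools 1, 8 and 12, slightly lower in pool 11 and slightly higher in pool 6. Its difference was -0.71 ± 0.22 (SE), 1.63-fold higher in suprarenal aorta, with an unadjusted p of 0.0132. Ccl7, a ligand of Ccr2, read 1.06, 0.85, 2.13, 1.97 and 1.91 in suprarenal and 1.06, 0.80, 1.40, 1.53 and 1.01 in infrarenal parts. Its parts were nearly level in pools 1 and 6, and in pool 1 the infrarenal one was lower by under 0.01, while it was lower in the other 3, with a difference of -0.42 ± 0.15 (SE) and an unadjusted p of 0.0225.

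Ccl2, the main monocyte attractant through Ccr2, read 1.59, 1.83, 2.40, 2.10 and 2.06 in suprarenal and 1.82, 1.61, 2.03, 1.92 and 2.04 in infrarenal parts. The infrarenal part was lower in 4 of 5 pools and higher in pool 1, the regions overlapped, and the difference was -0.11 ± 0.11 (SE; 95% interval -0.35 to 0.13), -0.20 without pool 1 and -0.044 without pool 8. For Ccl12, another Ccr2 ligand of the mouse, the difference was -0.064 ± 0.13 (SE), with lower infrarenal values in 2 of 5 pools, and it ran from -0.14 to 0.061 with each pool left out in turn, positive only without pool 12, and it was positive after quantile normalization (0.018). The 6 genes Ccl2, Ccl6, Ccl7, Ccl8, Ccl9 and Ccl12 thus all had negative differences over the pools, of which 4 were at an unadjusted p under 0.05, and their median was -0.36 log2 units. These 6 were put together with their values known, so the count is no test.

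Most macrophage markers also had negative differences. Of 15 markers fixed, 12 were measured, all above the dim range, and 11 of the 12 had negative differences. The median of the 12 was -0.20 log2 units, with 4 lower at an unadjusted p under 0.05 and none after adjustment. Over all genes above the dim range 66.5% had negative differences, 7.26% were lower at that p and the median was -0.065. Their mean level ran from 2.90 to 3.06 log2 units on infrarenal and from 3.01 to 3.43 on suprarenal arrays. By pool it differed by 0.015, -0.34, -0.33, 0.021 and -0.50 in pools 1, 6, 8, 11 and 12. Ccl9 differed by 0.095, -0.51, -0.43, -0.45 and -0.69 and Ccl8 by -1.01, 0.18, -1.11, -0.19 and -1.41 in the same pools. Pools 8 and 12 thus had low infrarenal values in all 3, whereas in pool 1 Ccl8 was lower while the markers were level, and in pool 6 the markers were lower and Ccl8 slightly higher. In whole tissue, fewer cells of a type and less RNA per cell cannot be told apart, and the part of macrophage number in these values was not tested.

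B cells are the main target of Cxcl13, so their markers are given beside it. All 8 measured of 10 were above the dim range, 6 with negative differences and a median of -0.052, and their mean level differed by -0.11, 0.55, -0.87, -0.13 and 0.23 in pools 1, 6, 8, 11 and 12. Cxcl13 differed by -0.87, -0.96, -0.059, -1.09 and -0.47 in the same pools. The largest negative value of the B cell markers was in pool 8, where Cxcl13 was nearly level. In that pool the suprarenal array had the highest mean level of these markers of all 10 arrays and the infrarenal array the lowest. Their mean level ran from -0.24 to 0.38 on infrarenal and from -0.17 to 0.63 on suprarenal arrays. Among 8 markers of lymphoid stroma, Madcam1, an addressin of lymphoid vessels, and Lta, lymphotoxin alpha, were in the dim range. That list had levels from 0.24 to 1.02 on infrarenal and from 0.28 to 1.20 on suprarenal arrays, the highest on suprarenal pool 8. By pool it differed by 0.18, 0.017, -0.96, -0.024 and 0.44. On suprarenal pool 8 Glycam1 of the list read 1.70, against -1.145 to -0.61 on the other arrays. Ltb read 1.98 there, against 0.47 to 1.11, while Madcam1 read -1.63. Glycam1 and Ltb were picked out with their values known. The part of B cells and lymphoid tissue in the Cxcl13 values was not tested.

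**Figure D3:**
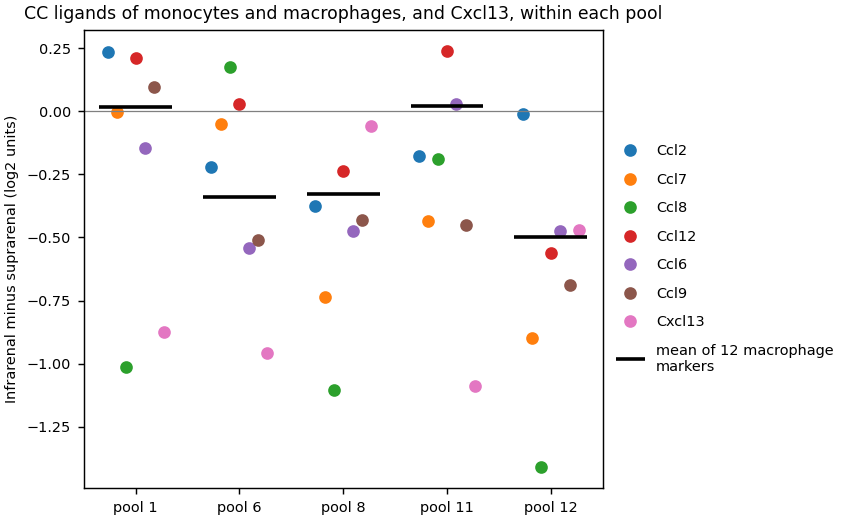
Infrarenal minus suprarenal difference (log2 units) within each pool for 7 ligand genes (points) and for the mean of 12 macrophage markers (black bars). Ccl8 lies below -1 in pools 1, 8 and 12 and above 0 in pool 6, while Cxcl13 lies below 0 in all 5 pools.

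Xcr1, the receptor that marks cross-presenting dendritic cells, read 3.80, 3.65, 3.84, 3.83 and 3.60 in suprarenal and 3.49, 3.45, 3.40, 3.66 and 3.56 in infrarenal parts. The infrarenal part was lower in 5 of 5 pools by small amounts, with a difference of -0.23 ± 0.083 (SE) and an unadjusted p of 0.0232. The gene of its ligand, Xcl1, differed by -0.13 ± 0.091 (SE), with 0.16, -0.053, -0.18, -0.24 and -0.36 in pools 1, 6, 8, 11 and 12. Of the other dendritic cell markers only Fscn1 shared the direction of Xcr1, with -0.25 ± 0.21 (SE), lower in 4 of 5 pools. Of 8 such markers, Xcr1 among them, 6 had positive and 2 negative differences, with a median of 0.017. Clec9a of that list, picked out with its values known, was higher in infrarenal aorta in 5 of 5 pools, with 0.34 ± 0.12 (SE; adjusted p = 0.638 by limma). The remaining positive markers differed by 0.0057 to 0.15. The part of dendritic cell number in the Xcr1 values was not tested. Ccr9, the receptor for Ccl25 that guides lymphocytes to the gut, was the 1 gene above the dim range with a positive difference at an unadjusted p under 0.05. Ccr9 read -1.11, -0.88, -1.17, -0.55 and -0.69 in suprarenal and -0.98, -0.21, -0.99, -0.20 and -0.34 in infrarenal parts. The infrarenal part was higher in 5 of 5 pools, with a difference of 0.33 ± 0.14 (SE; adjusted p = 0.638 by limma). Among the 12 dim genes, Ccr3 had a difference of 0.79 ± 0.29 (SE) at an unadjusted p of 0.0261 by limma. Ccr8 was higher in infrarenal aorta in 5 of 5 pools with 0.45 ± 0.23 (SE). By pool Ccr8 differed by 0.32, 0.19, 0.055, 1.38 and 0.32 in pools 1, 6, 8, 11 and 12, so most in pool 11. Ccr3 and Ccr8 were named with their values known.

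**Figure D4:**
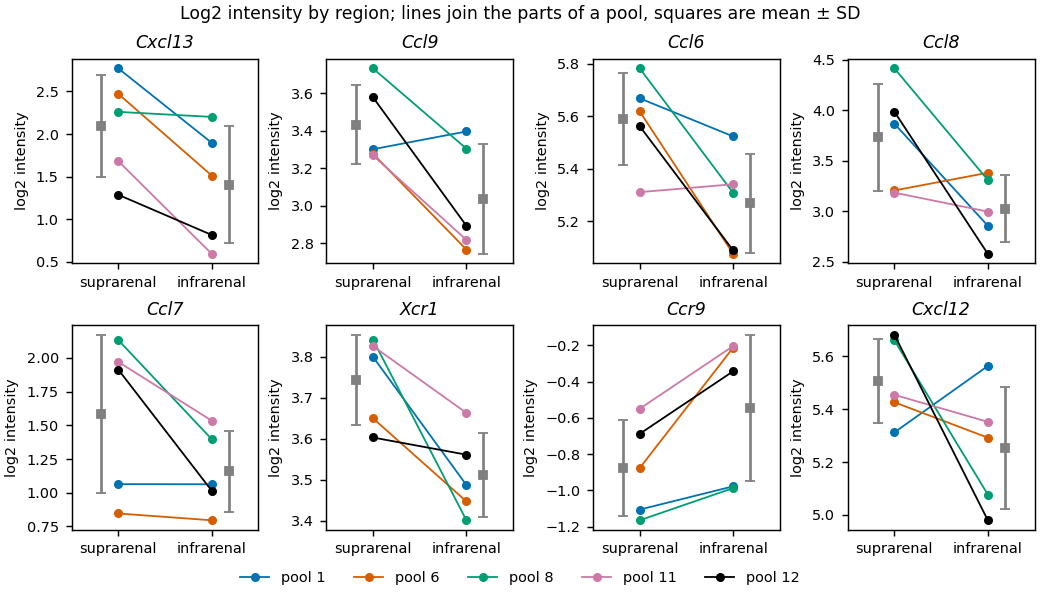
Log2 intensity of the 7 genes of lowest unadjusted p above the dim range and of Cxcl12 on suprarenal and infrarenal arrays, with lines joining the parts of a pool and grey squares for the region mean ± SD of 5 arrays. The lines of Cxcl13, Ccl7 and Xcr1 fall or stay level in all 5 pools and those of Ccr9 rise, while the ranges of the regions overlap for each gene.

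The same direction in all 5 pools was seen for 5 of the 40 genes with lower and 1 with higher infrarenal values. Over all genes above the dim range the shares were 7.55% and 2.07%. The 5 were Cxcl13, Ccl7, Xcr1, Ccl4, an inflammatory ligand of activated macrophages and T cells, and Cxcr2, the neutrophil receptor, and the 1 was Ccr9. Ccl4, in pool 1 lower by under 0.01, and Cxcr2 were picked out with their values known and had differences of -0.16 ± 0.071 and -0.33 ± 0.16 (SE) with unadjusted p-values of 0.0562 and 0.0705.

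Neither Cxcl12 nor its receptor gene Cxcr4 had a difference larger than the spread between pools. Cxcl12, a ligand of stromal and smooth muscle cells that retains Cxcr4-bearing leukocytes, read 5.31, 5.43, 5.66, 5.45 and 5.68 in suprarenal and 5.56, 5.29, 5.08, 5.35 and 4.98 in infrarenal parts. It was lower in 4 of 5 pools, most in pools 8 and 12, and higher in pool 1, with a difference of -0.25 ± 0.14 (SE; 95% interval -0.57 to 0.066). Without pool 1 it was -0.38 at an unadjusted p of 0.0209, and without pool 12 it was -0.14 at 0.317. With RNA input as a covariate the unadjusted p was 0.0255. Cxcr4 read 1.85, 0.50, 0.89, 0.92 and 0.70 in suprarenal and 0.28, 0.64, 1.10, 0.28 and 1.44 in infrarenal parts. It was highest on the suprarenal array of pool 1, and its pool differences ran from -1.58 to 0.74, so its difference of -0.23 ± 0.30 (SE) rested on pool 1 and turned to 0.11 without it, while it was -0.47 without pool 12. The atypical receptor gene Ackr3, whose product scavenges Cxcl12, differed by -0.35 ± 0.13 (SE; adjusted p = 0.638 by limma).

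Cxcr5, the receptor for Cxcl13 on B cells and follicular T cells, read -0.28, -0.36, -0.31, -0.32 and -0.40 in suprarenal and -0.20, -0.093, -0.35, -0.30 and -0.59 in infrarenal parts. The suprarenal arrays lay close together, and pool 12 gave the lowest value in either region. Its difference was 0.026 ± 0.12 (SE; 95% interval -0.25 to 0.30) and ran from -0.033 to 0.08 with each pool left out in turn.

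Ccr2, the receptor of inflammatory monocytes, and Ccl21b, a ligand of Ccr7 made by lymphatic vessels, had the same sign as each other in every pool. Ccr2 read 1.60, 1.75, 1.90, 1.36 and 2.45 in suprarenal and 2.05, 2.29, 2.19, 2.21 and 0.65 in infrarenal parts. Ccl21b read 1.66, 1.83, 1.25, 1.32 and 2.17 in suprarenal and 2.00, 2.15, 2.44, 2.49 and 0.39 in infrarenal parts. Both were higher in infrarenal aorta in pools 1, 6, 8 and 11 and far lower in pool 12, whose infrarenal array read below the other 9 for both genes. Over all pools the differences were 0.066 ± 0.34 and 0.25 ± 0.39 (SE). Without pool 12 they were 0.53 ± 0.12 and 0.76 ± 0.18 (SE, n = 4 pools), with unadjusted p-values of 0.00214 and 0.00335 and an adjusted p of 0.384 for each by limma. A value left out after it was seen to stand apart makes such a p too small. Ccl21b was 0.014 without pool 8 and 0.021 without pool 11, and Ccr2 ran from -0.13 to 0.53 with each pool left out in turn.

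Markers of vessel and other cells are given by pool beside these genes. The mean of 6 lymphatic endothelial markers differed by -0.076, -0.012, 0.11, 0.26 and -0.56 in pools 1, 6, 8, 11 and 12 and that of 10 endothelial markers by -0.032, -0.18, 0.20, 0.21 and -0.36, so pool 12 had the lowest value of both. Skeletal muscle markers differed by -2.27, 2.15, 0.95, 3.34 and -2.77 and brown adipocyte markers by 0.26, -2.09, -0.65, -1.98 and 1.28. Levels of the lymphatic list ran from 3.18 to 3.69 on infrarenal and from 3.43 to 3.74 on suprarenal arrays, with all 6 markers above the dim range. Cd209a, a dendritic cell marker picked out with its values known, differed by 0.0011, 0.057, 0.27, 0.90 and -1.19. It was also lowest on infrarenal pool 12 (1.83), so the pattern by pool was not particular to Ccr2 and Ccl21b. The mean of 8 dendritic cell markers differed by 0.034, 0.023, -0.065, 0.24 and -0.13. The part of all these markers in the Ccr2 and Ccl21b values was not tested.

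Ccl19, the other ligand of Ccr7, read 6.06, 5.44, 5.90, 6.15 and 6.24 in suprarenal and 5.98, 5.89, 6.11, 6.11 and 6.18 in infrarenal parts. The suprarenal array of pool 6 was lowest, the other 9 arrays lay between 5.89 and 6.24, and the difference was 0.095 ± 0.098 (SE; 95% interval -0.13 to 0.32). Without pool 6 it was 0.0061, so nearly all of it rested on that pool. Ccl5, a ligand made by T cells and stored in platelets, read 1.97, 1.07, 1.89, 1.74 and 1.69 in suprarenal and 2.48, 2.02, 2.04, 1.76 and 1.39 in infrarenal parts. It was higher in infrarenal aorta in 4 of 5 pools, most in pool 6, with a difference of 0.27 ± 0.17 (SE; adjusted p = 0.672 by limma). It was 0.095 without pool 6, and 0.41 without pool 12 at an unadjusted p of 0.0355.

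Cx3cl1, the membrane-bound fractalkine of endothelium, read 3.59, 3.94, 4.10, 3.86 and 4.21 in suprarenal and 3.81, 3.98, 3.88, 4.17 and 3.86 in infrarenal parts. Its sign varied between pools, and the difference was 0.0021 ± 0.11 (SE; 95% interval -0.26 to 0.26), while its dimmer second probe differed by 0.15. With each pool left out in turn the brighter Cx3cl1 probe ran from -0.076 to 0.09. Cx3cr1, the receptor of patrolling monocytes and resident macrophages, read -0.94, -0.59, -0.39, -0.61 and -0.57 in suprarenal and -0.68, -0.42, -0.72, -0.091 and -0.086 in infrarenal parts. It was higher in infrarenal aorta in 4 of 5 pools and lower in pool 8, with a difference of 0.22 ± 0.16 (SE; adjusted p = 0.692 by limma). It was 0.36 without pool 8 at an unadjusted p of 0.0411, and 0.15 without pool 11.

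Cxcl16, a transmembrane ligand that also binds oxidised lipoprotein, read 2.81, 2.24, 2.97, 2.90 and 3.25 in suprarenal and 2.99, 2.81, 3.24, 2.83 and 2.72 in infrarenal parts. Its suprarenal arrays ranged from pool 6, the lowest, to pool 12, the highest, and the difference was 0.082 ± 0.15 (SE). Its receptor gene Cxcr6, of T and natural killer T cells, read -0.90, -1.42, -1.07, -1.38 and -0.80 in suprarenal and -1.54, -1.13, -0.92, -0.99 and -0.77 in infrarenal parts. Cxcr6 was higher in infrarenal aorta in 4 of 5 pools and lower in pool 1, with a difference of 0.043 ± 0.18 (SE). The 95% intervals were -0.26 to 0.42 and -0.38 to 0.47. With each pool left out in turn, Cxcl16 ran from -0.038 to 0.24 and Cxcr6 from -0.044 to 0.21.

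Cxcl9, an interferon-induced ligand of Cxcr3, was among the 3 most variable of the 40 genes, with Cxcl13 and Ccl21b. Cxcl9 read 1.18, 1.96, 1.64, 1.08 and 0.82 in suprarenal and 2.44, 0.61, 1.75, 1.85 and 0.97 in infrarenal parts. Infrarenal pool 1 was the highest array and infrarenal pool 6 the lowest, and the difference of 0.19 ± 0.32 (SE) turned to -0.080 without pool 1 and was 0.57 without pool 6. Its relative Cxcl10, named after its value was seen, was higher in 3 of 5 pools with a difference of 0.48 ± 0.22 (SE) and an unadjusted p of 0.0607. Both interferon-induced ligands were lower in infrarenal aorta in pool 6.

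**Figure D5:**
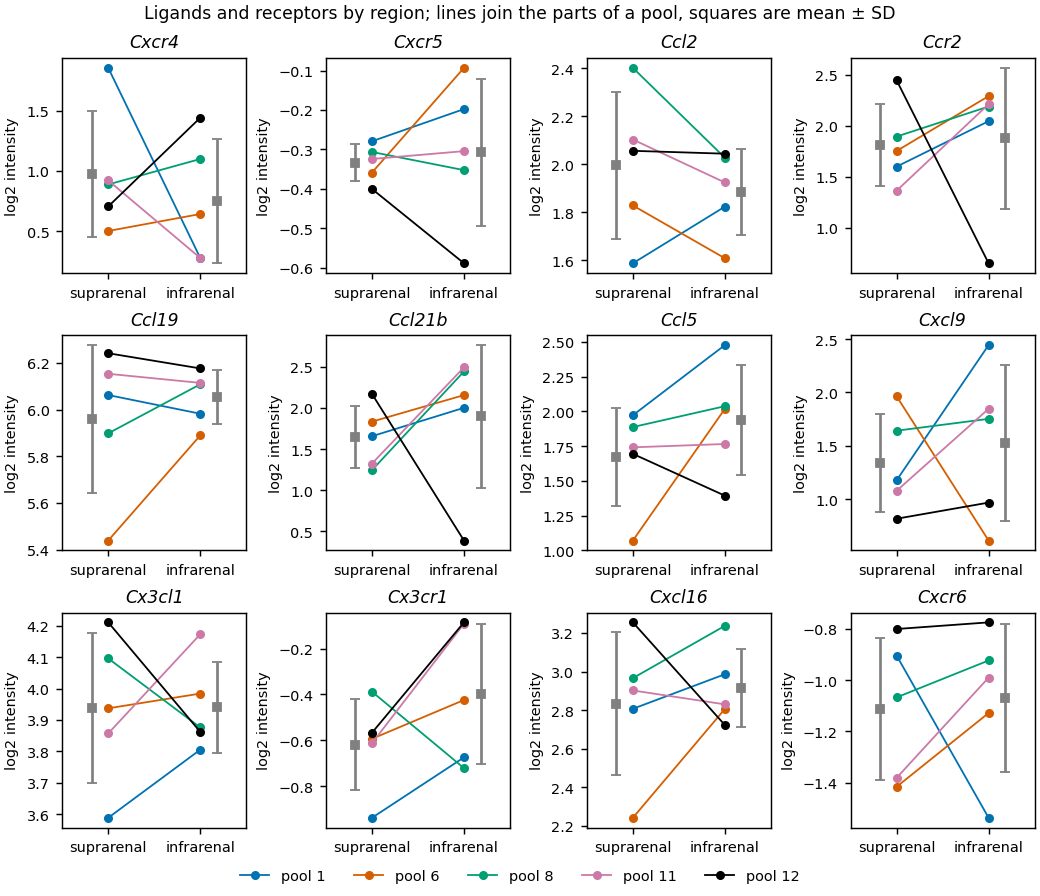
Log2 intensity of 12 further ligand and receptor genes on suprarenal and infrarenal arrays, with lines joining the parts of a pool and grey squares for the region mean ± SD of 5 arrays. The pool 12 lines of Ccr2 and Ccl21b fall steeply while their other lines rise.

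The other 20 genes above the dim range had differences from -0.34 to 0.48 log2 units. Of these, 15 were negative and 5 positive, beside 66.5% negative over all genes above the dim range. Genes above the dim range with an unadjusted p under 0.05 were all described above, so none of these 20 could have one. The 20 are what remained after that choice, and their split of signs depends on it. They include the eosinophil ligands Ccl11 and Ccl24, the T helper cell ligands Ccl17, Ccl22 and Ccl1 with the receptor Ccr4, the skin ligand Ccl27a, the thymic and gut ligand Ccl25, Cxcl14 and Cxcl17, the neutrophil ligand Cxcl1, the lung ligand Cxcl15, the inflammatory ligand Ccl3 and Cxcr3, a chemokine receptor gene of T cells. The steadiest of the 40 genes was Ccl22, with an SD of 0.112 log2 units over the 10 arrays. The 12 dim genes had SDs from 0.411 to 1.18, and differences from -0.54 to 0.79, 6 in each direction. Where a gene had 2 probes, the dimmer one differed by -0.028 for Ccl27a, 0.39 for Cxcl15 and 0.99 for Cxcr1, beside 0.0063, 0.11 and 0.07 for the brighter one. The brighter Cxcl15 probe differed by 0.61 in pool 6 and by -0.22 to 0.11 in the remaining pools.

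Genes that act beside the chemokines were read from 6 lists, and none of their 78 measured genes passed in either direction. Over all genes 60.4% had negative differences, with a median of -0.049. Over those above the dim range it was 66.5%, with a median of -0.065. All 6 atypical receptors were measured, with 4 negative differences and a median of -0.16. Ackr2, a scavenger of inflammatory CC ligands, differed by -0.23 ± 0.089 (SE; adjusted p = 0.638 by limma) and was lower in 5 of 5 pools, with regions that did not overlap. Chemoattractants under other symbols were measured for 4 of 5 genes, with a median of -0.085, and included Rarres2, which encodes chemerin, at -0.13 ± 0.085 and the platelet chemokine Pf4 at -0.13 ± 0.09 (SE). The receptor signalling list had 27 of 30 genes measured, 21 negative and 6 positive, with a median of -0.083. In it the G protein subunit gene Gng2 differed by -0.31 ± 0.10 and the receptor kinase gene Grk3 by -0.49 ± 0.22 (SE), the latter -0.77 without pool 12.

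Proteases that cut chemokines were measured for 10 of 10 genes, 8 negative and 2 positive, with Ctss, the cathepsin S of macrophages, at -0.26 ± 0.084 and the macrophage elastase Mmp12 at -0.47 ± 0.30 (SE), the latter from -0.77 to -0.28 with each pool left out in turn. Cytokines and NF-kB genes that induce chemokines were measured for 18 of 19 genes, 9 in each direction. Tnf, Il1a, Ifng and Lta of that list were in the dim range, while Tnfrsf1a, a tumour necrosis factor receptor, differed by -0.16 ± 0.08 and Il1b by -0.49 ± 0.28 (SE). With each pool left out in turn they ran from -0.18 to -0.10 and from -0.82 to -0.31. Adhesion genes of leukocyte arrest were measured for 13 of 14, 8 negative and 5 positive. Selp, the P-selectin of endothelium and platelets, was higher in infrarenal aorta in 5 of 5 pools with a difference of 0.28 ± 0.11 (SE; adjusted p = 0.638 by limma), and the integrin subunit gene Itgb1 differed by -0.18 ± 0.082 (SE). The medians of these 3 lists were -0.095, -0.0031 and -0.043, beside -0.049 over all genes and -0.065 over those above the dim range.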

How the data were processed

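Per the labels' protocols, total RNA of the 10 samples was amplified to cRNA carrying biotin, and Cy5-streptavidin was the stain. The authors deposited linear intensities, already brought to array medians of 1.001 to 1.003. Their scanning, background correction and scaling are described nowhere in the sources used here. Of these intensities 1968 were missing and 1755 at or below 0. Values below a floor of 0.0278 (percentile 1 of positive values, -5.17 as log2) were raised to it, 5328 in all, and log2 was taken with no further normalization. Probes needed 3 values in each region, which 36061 of 36227 had. A single symbol was listed for 21615 probes, updated through Entrez identifiers (21487 matched) with the RefSeq table of GRCm38.p6, several symbols for 681 and none for 13931.

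The two-sided test was that of limma 3.58.1 (R 4.3.3, lmFit and eBayes with a variance trend) with pool as a block. The pairing comes from the design, since both parts of a pool are of the same animals. For each pool the r between both arrays' deviations from the mean of their region was 0.135, 0.0292, -0.019, -0.197 and -0.2, in the order of pools 1, 6, 8, 11 and 12. Nothing says that pools were processed separately, so p-values measure the spread of the differences within these pools, moderated across probes by eBayes. The members and lists were chosen with earlier results of these data known. Values on every array are given for Cxcl13, Ccl9 and Cxcl12, for members above the dimmest 30% with an unadjusted p under 0.05, for those above it among the pairs Cxcl12 and Cxcr4, Cxcl13 and Cxcr5, Ccl2 and Ccr2, Cx3cl1 and Cx3cr1, Ccl19 or Ccl21 and Ccr7, Cxcl16 and Cxcr6, for Ccl5, and for the 3 with the largest SD. The 2 genes of lowest p are given per pathway list. Roles were assigned after values were seen. Alternatives were no replicate block, quantile normalization, an offset of 0.2701 in place of the floor, dim probes left out, no variance trend, RNA input as a covariate, each pool left out, other dim limits and all probes of a gene averaged. In simulated data of 35714 probes, 8%, 44%, 72% and 76% of 50 probes changed by 0.5, 1, 2 and 3 log2 units were recovered, with 3 false calls.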

Additional observations from a re-analysis of the deposited data

Results flagged for a closer look

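Among 80 sets of 5 arrays of 1 region, for the 40 genes above the dim range, 3 had 1 array that stood far outside the rest. Chance flags about 1 in 20 such sets, which is 4 of 80. Infrarenal pool 12 read 0.39 log2 units for Ccl21b, against 2.00 to 2.49 on the other infrarenal arrays. The same array read 0.65 for Ccr2, against 2.05 to 2.29. Suprarenal pool 12 read -0.66 for Ccl25, a ligand of Ccr9, against 0.11 to 0.38 on the other suprarenal arrays. All 3 were arrays of pool 12.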

How the results depend on the processing

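None of the 52 chemokine genes passed under any alternative run, with the smallest adjusted p by limma at 0.384, without pool 12, and none of the 78 pathway genes did. Over all probes 0 passed, except 1 after quantile normalization. With no replicate block 0 passed too, and the count of chemokine genes at an unadjusted p under 0.05 was 6 against 8 with the block. Lower chemokine genes above the dim range at that p numbered 2 without pool 8 instead of 6, beside 455 instead of 1023 of all genes above it. The count of chemokine genes at that p was 5 without pool 8 and up to 10 with RNA input as a covariate. Over all probes the count was 2726, with 1475 without pool 6 and 1802 without pool 8. Quantile normalization turned its split from 1625 lower and 1101 higher to 930 and 1132, and no variance trend gave 977 and 1346. The median of genes above the dim range then moved from -0.065 to 0.00044 after quantile normalization, and that of the 40 chemokine genes from -0.11 to -0.016, with 21 instead of 24 negative. Within pool 1 that median was 0.11. Without pool 8 it was -0.021. The number above the dim range was 47, 40 and 28 with limits of 20%, 30% and 50%.

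Of 38 genes, 29 kept their sign under every alternative run. These 38 were chosen in part for a low unadjusted p, in part with their values known and in part as ligand and receptor pairs. A low p already favours a steady sign, so this count is no test of stability. No such share over all genes is given beside it. With RNA input as a covariate Ccr2 turned to -0.057 and Cx3cl1 to -0.030. After quantile normalization Cxcr6 turned to -0.032, Ccl12 to 0.018 and Rarres2 to 0.030. With each pool left out in turn, differences ran from -0.13 to 0.53 for Ccr2, -0.076 to 0.090 for Cx3cl1, -0.038 to 0.24 for Cxcl16, -0.080 to 0.57 for Cxcl9, -0.47 to 0.11 for Cxcr4, -0.033 to 0.080 for Cxcr5, -0.044 to 0.21 for Cxcr6 and -0.14 to 0.061 for Ccl12. Cxcl13 ran from -0.85 to -0.59, Ccl9 from -0.52 to -0.32, Ccl8 from -0.93 to -0.53, Ccl6 from -0.41 to -0.27, Ccl7 from -0.53 to -0.31, Cxcl12 from -0.38 to -0.14, Ccl5 from 0.095 to 0.41, Ccl19 from 0.0061 to 0.14, Cx3cr1 from 0.15 to 0.36, Xcr1 from -0.28 to -0.18 and Ccr9 from 0.25 to 0.38. The cause of these turns was not tested. Dim probes limit what can be read of the 12 dim genes, since values near the floor are compressed and noisy.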
